A study of Polistes metricus with 16 samples.

Results

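The subject is a difference of differences in gene expression in larval heads of the paper wasp Polistes metricus. The caste contrast is the log2 fold change of worker-reared over foundress-reared field larvae. The nutrition contrast is the log2 fold change of ad libitum over restricted laboratory larvae. The interaction is the first minus the second, taken for every expressed transcript in one model of all 16 larvae. Of 74517 transcripts in the deposited table, 36337 (48.8%) had enough counts to be tested and are the members described here. The rest comprised 870 transcripts with no count in any larva and 37310 with too few, whose median was 1.06 counts per larva.

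All larvae were female, in the fifth instar, and sequenced singly from the head, with 4 larvae in each group. Both field groups came from 1 site in Madrid, Iowa, in 2010, the foundress-reared larvae in late spring and the worker-reared larvae in late summer. The labels call the foundress-reared larvae worker-destined and the worker-reared larvae queen-destined from the colony cycle, and no larva was followed to the adult stage. Restricted larvae came from North Carolina nests that were given a worm every 3 days in the laboratory in 2009, and ad libitum larvae from such nests that were given one every 1 day. Season therefore cannot be told apart from rearing caste, and field and laboratory differ together in year, population and setting. Whether larvae of a group were nest mates is not stated, so a p-value speaks only of the variation among the larvae sampled.

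Polistes colonies are annual. A foundress rears the early brood alone, and these daughters become workers that feed the later brood, from which the next queens come. Queens and workers look alike, and the larval protein supply is thought to bias a female towards one path or the other, with insulin and juvenile hormone signalling and storage proteins as the best known parts of the response in social wasps and bees. If a better diet and the queen path acted alike on a transcript, its caste and nutrition fold changes would be equal in sign and size and the interaction would be 0. A positive interaction marks a transcript that was high in worker-reared or restricted larvae relative to their partner group, and a negative one a transcript that was high in foundress-reared or ad libitum larvae. Identifiers stand in the deposited table without gene names, so transcripts carry no known role here, and no head tissue marker could be read.

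Libraries held 28359372 to 37626473 counts, and levels are given as CPM, which are counts scaled to a common library size with TMM factors, where 1 CPM corresponded to 20.4 to 47.8 counts. Restricted replicate 4 lay apart from its group. The number of transcripts with a count was 62026 there, while its 3 group mates had 57586 to 58253, and its score on the first principal component was -55.9, where theirs were 24.8 to 40.8. Scores spread about as widely in the other groups, at -75.1 to 25.5 (worker-reared), -37.1 to 61.3 (foundress-reared) and -36.9 to 45.6 (ad libitum). The 10 most abundant transcripts held 32.1% of counts in foundress-reared replicate 4 and 28.1% in ad libitum replicate 3, more than in their group mates. The number of calls, their separation between groups and the shares by abundance are given with and without restricted replicate 4. The same holds for the calls that also differed between field and laboratory and for the number of transcripts detected.

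The caste and nutrition fold changes differed for 199 transcripts, which is 0.548% of those tested (edgeR quasi-likelihood test, Benjamini-Hochberg adjusted p under 0.05). With the sign counted, the caste value was the larger in 102 of them (0.281% of those tested) and the nutrition value in 97 (0.267%). Larger is used in this signed sense for the calls and does not mean a greater size of effect. With upper-quartile scaling in place of TMM, 70.9% of 254 calls had the larger caste value, against 51.3% with TMM. The same test called 0.044% of transcripts for caste alone and 0% for nutrition alone. Over all tested transcripts the interaction centred on 0, with a median log2 difference of -0.0017, and 90 in 100 values lay between -1.44 and 1.46. An unadjusted p under 0.05 was reached by 6984 transcripts (19.2%), divided almost evenly into 3563 with the larger caste value and 3421 with the larger nutrition value. The evidence sat close to the threshold. Of the 199 adjusted p-values 177 (88.9%) were 0.04 or above, 12 were under 0.03, and a further 272 transcripts lay between 0.05 and 0.06.

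**Figure D1:**
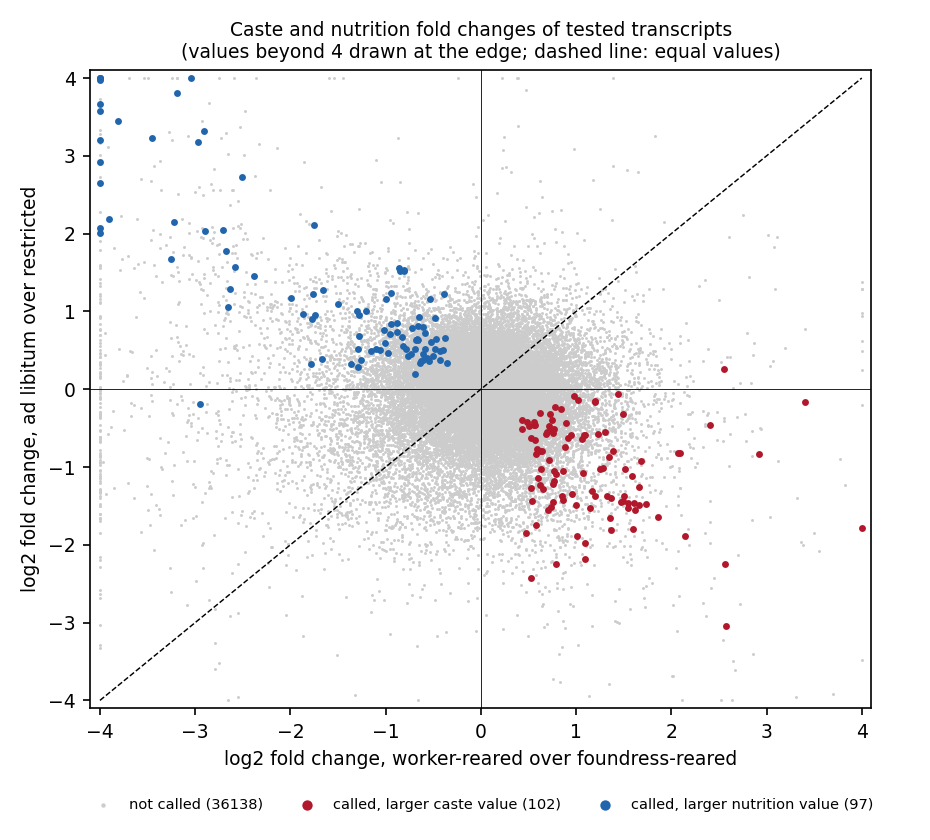
Each point is a tested transcript, with the caste log2 fold change on the x axis and the nutrition log2 fold change on the y axis. The 102 calls with the larger caste value (red) lie to the lower right and the 97 with the larger nutrition value (blue) to the upper left of the dashed line of equal values, and the 36138 transcripts not called (grey) centre on the origin.

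The called transcripts showed one form of pattern almost throughout. In 98 of the 102 calls with the larger caste value, the mean CPM of both worker-reared and restricted larvae exceeded that of both other groups. In 95 of the 97 with the larger nutrition value, both of these means were below those of foundress-reared and ad libitum larvae. The restricted group was the highest in 75 of the 102 and worker-reared in 27. The median log2 fold changes were 0.99 for caste and -1.02 for nutrition in the 102 calls, and -1.10 and 0.90 in the 97, so that both pairs of groups contributed. At an unadjusted p under 0.05, 171 calls passed in both contrasts, 21 in the caste contrast alone and 7 in the nutrition contrast alone. In absolute size the caste value was the larger in 128 of the 199, which were 59 of the 102 and 69 of the 97. These counts describe the selection, which used the same contrasts, and carry no test.

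The 16 larvae were then compared transcript by transcript. The CPM of all 8 worker-reared and restricted larvae did not overlap with the CPM of all 8 foundress-reared and ad libitum larvae in 63 calls (31.7%), against 0.369% of tested transcripts. Of these 63, worker-reared and restricted larvae were higher in 24 and lower in 39. Within both pairs of groups separately, levels did not overlap in 99 calls, against 0.842% of tested transcripts. Without restricted replicate 4, the 7 remaining larvae of the one side were apart from the 8 of the other in 84 of the 199 calls and in 262 of 37128 tested transcripts. The calls were chosen by the contrast of these same larvae. A higher share among them follows from that choice and carries no test.

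**Figure D2:**
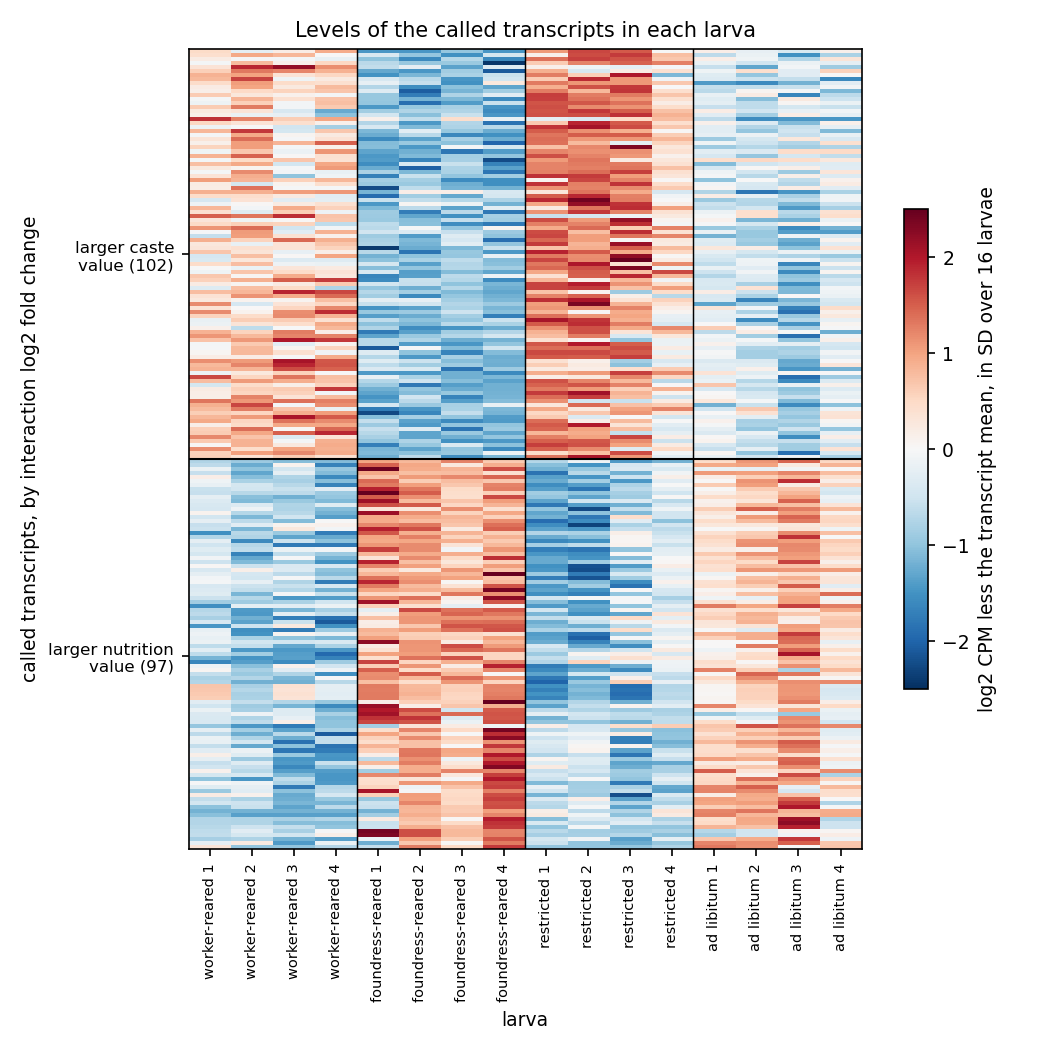
Rows are the 199 called transcripts and columns the 16 larvae, with colour giving log2 CPM less the transcript's mean, in standard deviations over the larvae. The 8 worker-reared and restricted larvae do not overlap with the other 8 in 63 of the rows, and in both directions the median of restricted replicate 4 lies nearer to the transcripts' means than those of the other restricted larvae.

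Larvae of a group were not alike in how strongly they carried the pattern. Over the 102 calls with the larger caste value, the median log2 CPM relative to each transcript's mean was 0.710 to 0.846 in restricted replicates 1 to 3 and 0.166 in restricted replicate 4. Worker-reared larvae had medians of 0.227 to 0.385, foundress-reared larvae -0.616 to -0.567 and ad libitum larvae -0.480 to -0.117. The medians of all 8 worker-reared and restricted larvae were thus above 0 and those of the other 8 below it. Over the 97 calls with the larger nutrition value, foundress-reared replicate 4 had the highest median at 0.779 and restricted replicate 1 the lowest at -0.601. Restricted replicate 4 lay nearer to the other restricted larvae than to ad libitum larvae in 109 of the 199 calls (54.8%). For each other larva the corresponding share was 77.9% to 97.0%. The calls were chosen on these larvae, so these are descriptions.

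Of the 199 calls, 5 were made again in at least 12 of the 16 fits that each left out 1 larva. The same 5 were also called in each of the 9 other settings of test, scaling, filter and depth, and are described first. PmetTSAr1.1-007756 had the smallest p of the interaction. Its levels were 7.39, 11.1, 4.81 and 7.46 CPM in worker-reared larvae 1 to 4 and 13.3, 10.2, 9.84 and 6.59 CPM in restricted larvae. Foundress-reared larvae had 2.11, 2.82, 3.07 and 2.05 CPM, and ad libitum larvae 3.56, 3.41, 3.88 and 3.60 CPM. The lowest worker-reared larva was thus above the highest foundress-reared and ad libitum larvae, and no larva crossed between the sides. Worker-reared larvae were 3.06-fold above foundress-reared larvae and restricted larvae 2.76-fold above ad libitum larvae, which gave an interaction log2 fold change of 3.07 (SE 0.358, adjusted p = 0.0107 by edgeR). Leaving out 1 larva at a time moved it between 2.84 and 3.24, and of these fits only the one without ad libitum replicate 2 lost the call (edgeR adjusted p = 0.0531).

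PmetTSAr1.1-007757, the next identifier in the assembly, followed it closely. It measured 8.42, 11.9, 5.25 and 6.44 CPM in worker-reared and 12.8, 10.5, 9.52 and 5.53 CPM in restricted larvae. Foundress-reared larvae had 2.30 to 3.22 CPM and ad libitum larvae 3.01 to 4.09 CPM, so the sides again did not overlap. The interaction log2 fold change was 2.88 (SE 0.386, adjusted p = 0.0149 by edgeR), and the call was lost without foundress-reared replicate 2, restricted replicate 2, ad libitum replicate 1 or ad libitum replicate 2. Consecutive identifiers can be isoforms or copies that share fragments, and these 2 transcripts may not be independent observations. Among the 199 calls there were 7 such adjacent pairs, each with both members in the same direction. After removal of group means their levels had a median correlation of 0.928 over the 16 larvae. Counting each run of consecutive identifiers once leaves 192. That is not a count of independent observations, since calls without consecutive identifiers could also be nearly alike. PmetTSAr1.1-012310, PmetTSAr1.1-012313, PmetTSAr1.1-012317 and PmetTSAr1.1-012320 had similar levels relative to their means in each larva.

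PmetTSAr1.1-009293 measured 3.24, 6.16, 3.47 and 3.88 CPM in worker-reared larvae and 7.96, 8.83, 8.83 and 4.96 CPM in restricted larvae. Foundress-reared larvae had 1.47, 2.16, 1.15 and 1.23 CPM, and ad libitum larvae 2.94, 3.04, 2.28 and 2.95 CPM. The sides did not overlap, although the lowest worker-reared larva exceeded the highest ad libitum larva by little. The interaction log2 fold change was 2.92 (SE 0.374, adjusted p = 0.0107 by edgeR), and of the omissions only that of ad libitum replicate 2 lost this call too.

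PmetTSAr1.1-008776 differed less but with a narrow spread. It measured 14.6, 16.5, 18.2 and 15.1 CPM in worker-reared larvae against 9.51, 9.48, 10.2 and 9.01 CPM in foundress-reared larvae. Restricted larvae had 20.3, 21.4, 26.5 and 22.3 CPM, and ad libitum larvae 17.0, 13.7, 15.4 and 15.1 CPM. Neither pair overlapped, but the worker-reared and ad libitum ranges did, because the laboratory larvae lay higher as a whole. The interaction log2 fold change was 1.32 (SE 0.169, adjusted p = 0.0107 by edgeR), and it was not called without foundress-reared replicate 2 or ad libitum replicate 2.

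PmetTSAr1.1-004133 was the strongest call with the larger nutrition value and the only one of that direction among the 5. It measured 26.8, 23.4, 19.4 and 18.4 CPM in worker-reared larvae and 47.6, 54.1, 54.1 and 54.5 CPM in foundress-reared larvae, which did not overlap. Restricted larvae had 28.9, 31.5, 43.4 and 33.0 CPM and ad libitum larvae 45.2, 48.7, 38.6 and 45.8 CPM, where restricted replicate 3 exceeded ad libitum replicate 3. The caste log2 fold change was -1.26 (SE 0.150) and the nutrition log2 fold change 0.38 (SE 0.148), so most of the interaction of -1.64 (SE 0.210, adjusted p = 0.0107 by edgeR) came from the field pair. It was not called without foundress-reared replicate 2 or ad libitum replicate 2.

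**Figure D3:**
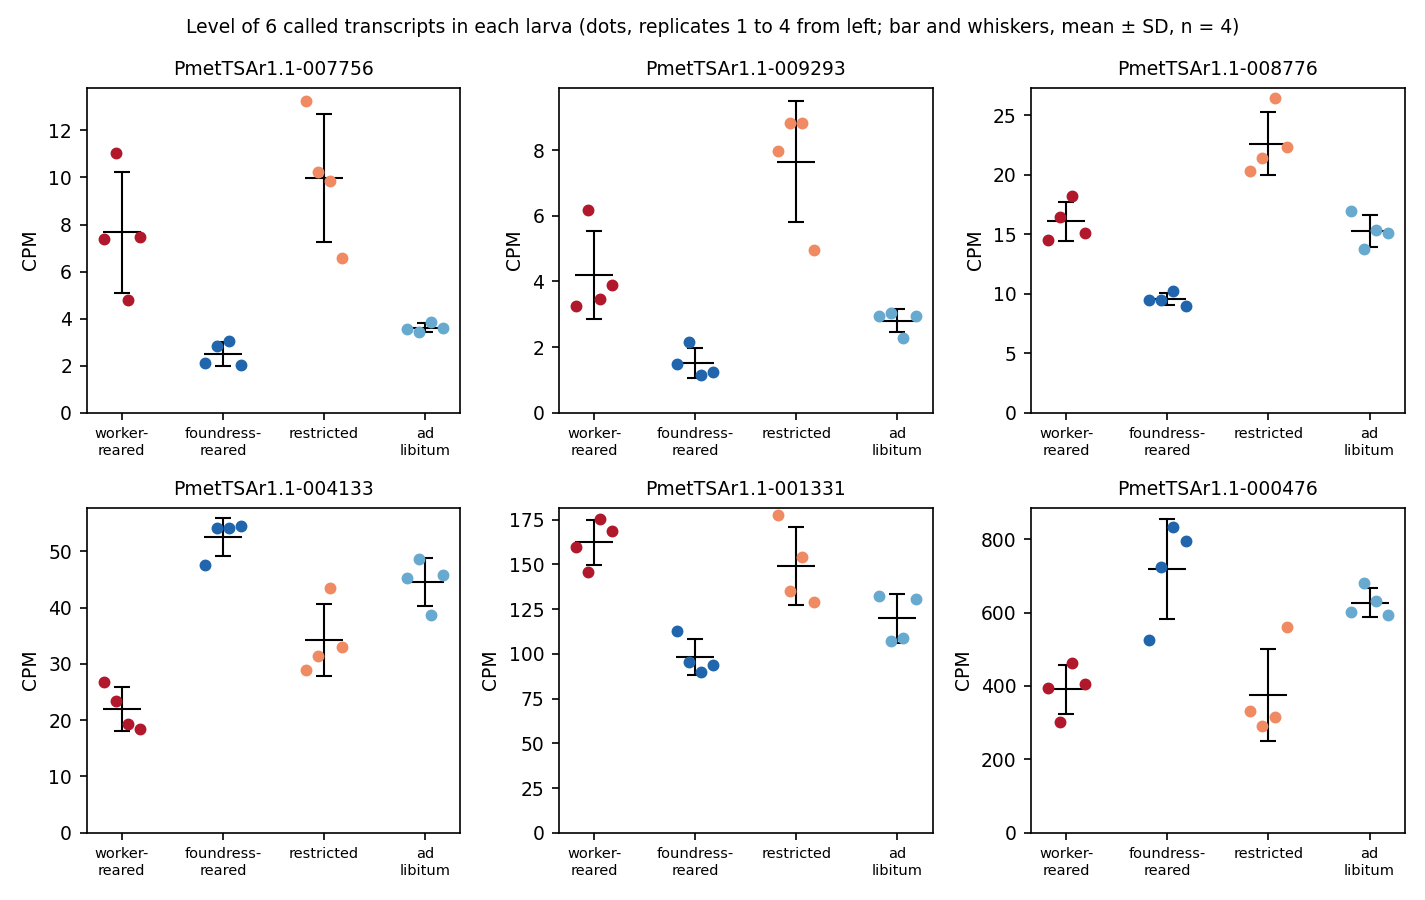
CPM (y axis, from 0) of 6 called transcripts in the 4 groups (x axis), with a dot for each larva and the mean ± SD of 4 larvae. PmetTSAr1.1-007756, PmetTSAr1.1-009293, PmetTSAr1.1-008776 and PmetTSAr1.1-001331 are higher in worker-reared and restricted larvae than in their partner groups, and PmetTSAr1.1-004133 and PmetTSAr1.1-000476 are lower.

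The most abundant calls had smaller or less certain differences. PmetTSAr1.1-001331, the most abundant of the 102, had 146 to 175 CPM in worker-reared and 90.1 to 113 CPM in foundress-reared larvae, with no overlap. Restricted larvae had 177, 135, 154 and 129 CPM and ad libitum larvae 133, 107, 109 and 131 CPM, and these ranges overlapped. Its interaction log2 fold change was 1.04 (SE 0.188, adjusted p = 0.0402 by edgeR). PmetTSAr1.1-000476, the most abundant of the 97, had 395, 301, 462 and 405 CPM in worker-reared and 526, 723, 832 and 796 CPM in foundress-reared larvae. In the laboratory larvae it had 332, 292 and 315 CPM in restricted replicates 1 to 3 and 562 CPM in restricted replicate 4, close to the 594 to 681 CPM of ad libitum larvae. Its interaction log2 fold change was -1.62 (SE 0.304, adjusted p = 0.0402 by edgeR), and -1.89 without restricted replicate 4 (edgeR adjusted p = 0.00442). Both of these calls were made in 3 of the 16 fits without 1 larva.

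Only 2 called transcripts had the same sign in both contrasts, and in each the difference lay in the field larvae. PmetTSAr1.1-013766 had 13.2, 6.33, 6.70 and 7.82 CPM in foundress-reared larvae and 0.688 to 1.42 CPM in worker-reared larvae. Restricted larvae had 0.725 to 1.28 CPM and ad libitum larvae 0.590 to 1.28 CPM, so the 12 larvae of the other groups shared one low level. Its interaction log2 fold change was -2.77 (SE 0.456, adjusted p = 0.0379 by edgeR). PmetTSAr1.1-022057 had 3.95, 3.52, 5.02 and 2.31 CPM in worker-reared and 0.472 to 0.773 CPM in foundress-reared larvae, while all 8 laboratory larvae lay between, at 0.801 to 1.90 CPM (interaction 2.30 on the log2 scale, SE 0.443, adjusted p = 0.0419 by edgeR). The first call was kept in 4 and the second in 3 of the 16 omissions.

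A single called transcript had no count in a whole group. PmetTSAr1.1-044292 was at 0 in all 4 worker-reared larvae and reached 0.409 CPM at most in foundress-reared larvae, with 0.0297 to 0.181 CPM in restricted and 0.337 to 0.564 CPM in ad libitum larvae. No fold is given for it, since 1 CPM corresponds to 20.4 to 47.8 counts and these levels rest on few counts.

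The 4 most abundant transcripts of the larval head were not called, and 3 of them varied too widely within groups for the test to resolve even large differences. PmetTSAr1.1-000002 measured 302 to 14438 CPM in worker-reared larvae and 6390 to 163266 CPM in foundress-reared larvae. In the laboratory it measured 3181 to 62531 CPM in restricted and 12994 to 135475 CPM in ad libitum larvae. All 4 ranges overlapped. Its interaction log2 fold change was -3.61 with an SE of 1.79 (edgeR adjusted p = 0.29), and those of PmetTSAr1.1-000005 and PmetTSAr1.1-000003 were -3.65 (SE 1.77, adjusted p = 0.279 by edgeR) and -2.91 (SE 2.14, adjusted p = 0.491 by edgeR). PmetTSAr1.1-014844 was steadier, at 7062 to 16389 CPM in worker-reared larvae and 13159 to 18852 CPM in foundress-reared larvae, with 7552 to 14380 CPM in restricted and 9464 to 24776 CPM in ad libitum larvae. Its value was -1.07 (SE 0.455, adjusted p = 0.212 by edgeR).

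The largest differences that were not called rested on a few larvae. PmetTSAr1.1-001020 had 1308 CPM in foundress-reared replicate 4 and 587 CPM in ad libitum replicate 3, and 1.24 CPM or less in each of the other 14 larvae. Its interaction log2 fold change of -20.7 (SE 5.45, adjusted p = 0.0764 by edgeR) depends on groups near 0 and is no measure of size. PmetTSAr1.1-010495 had 17.4, 14.2 and 28.5 CPM in restricted replicates 1 to 3 and 0.068 CPM in restricted replicate 4. It reached 10.4 CPM in worker-reared replicate 2 and 4.72 CPM in ad libitum replicate 3, against 0.935 CPM or less in the other 10 larvae (interaction 7.64 on the log2 scale, SE 2.41, adjusted p = 0.112 by edgeR). Without restricted replicate 4 its adjusted p was 0.0397.

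Direction depended on abundance. The tested transcripts were divided into 5 equal parts by mean CPM. Among those with an unadjusted p under 0.05, 67.9% had the larger caste value in the lowest part (0.131 to 0.515 CPM), 65.4% in the second, 59.3% in the middle, 46.7% in the next and 31.6% in the highest (above 20.03 CPM). The called transcripts followed the same order, with 15 against 9 in the lowest part and 19 against 30 in the highest. With upper-quartile scaling the share in the highest part was 47.1% and that in the lowest 73.9%, and without restricted replicate 4 these shares were 32.4% and 58.4%. Transcripts are not independent of each other, so these shares carry no test.

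**Figure D4:**
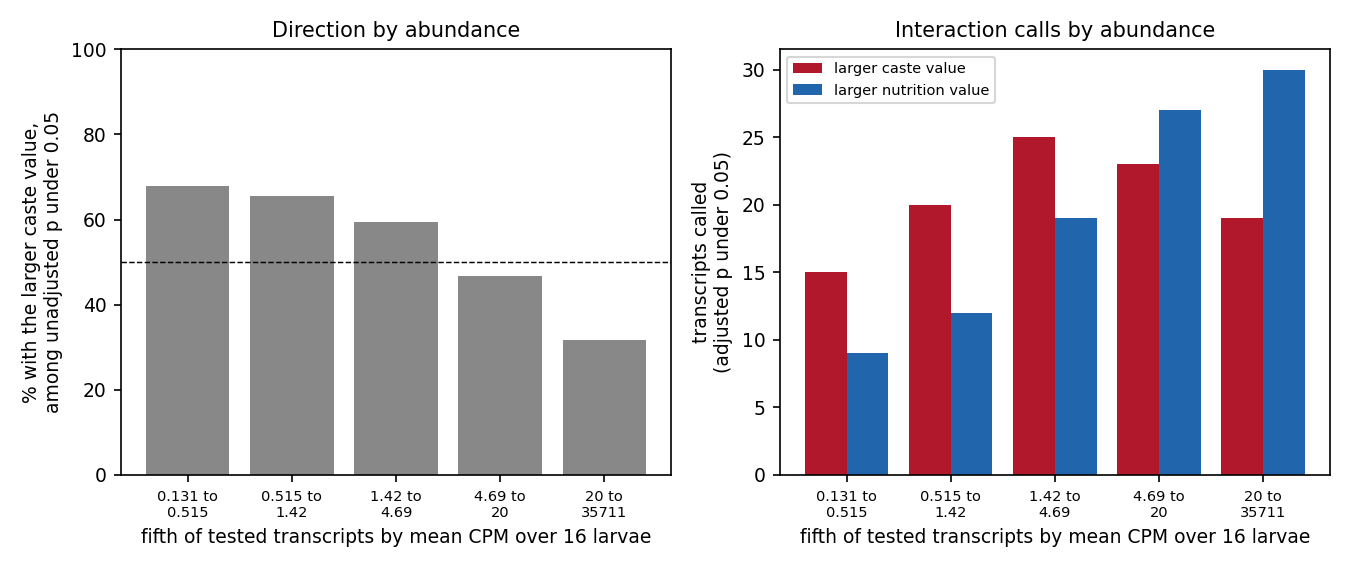
The left panel gives, for each of 5 equal parts of the tested transcripts by mean CPM, the percentage with the larger caste value among those at an unadjusted p under 0.05, falling from 67.9% to 31.6% across the dashed 50% line. The right panel gives the number called in each direction, from 15 against 9 in the lowest part to 19 against 30 in the highest.

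Library measures were compared with the same difference of differences. Transcripts with at least 1 count were 4892.5 more numerous on that scale, with group means of 58758 (worker-reared) and 54891 (foundress-reared) in the field and of 58968 (restricted) and 57942.5 (ad libitum) in the laboratory. An exact two-sided permutation test over the 4900 relabellings within field and within laboratory gave p = 0.0216, which did not pass after adjustment over 4 library measures (adjusted p = 0.0865). Without restricted replicate 4 the difference was 3873 (exact permutation, adjusted p = 0.188). After thinning to equal totals it was 4013.75 (exact permutation p = 0.0457, adjusted p = 0.183). The share of counts held by the 10 most abundant transcripts was lower by 11.1 percentage points on the same scale (difference of -11.1, exact permutation p = 0.15), and total counts and the first principal component gave exact permutation p = 0.121 and p = 0.696. The TMM scaling factor averaged 1.16 (worker-reared) and 0.846 (foundress-reared) in the field and 1.04 (restricted) and 1.06 (ad libitum) in the laboratory (difference of differences 0.295, exact permutation p = 0.207). The part of library composition in the abundance order was not tested.

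Precision also rose with abundance. The median standard error of the interaction log2 fold change fell from 0.712 in the lowest part to 0.274 in the highest, and the percentage called went from 0.33% to 0.674%. The smallest absolute log2 difference called was 2.24 in the lowest part and 0.69 in the highest. The median within-group SD on the log2 CPM scale fell alongside, from 0.609 to 0.277, and the parts of counting depth and of spread among larvae were not told apart. Called transcripts had a median within-group SD of 0.352 on the log2 CPM scale against 0.447 over all tested. Together they held 0.391% of all counts.

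Field and laboratory larvae were also compared as a whole, with the mean of both field groups set against that of both laboratory groups. This contrast is orthogonal to the interaction in a design with equal groups and had no part in the choice of calls. Of the 199 calls, 13 (6.53%) differed between field and laboratory at an edgeR adjusted p under 0.05, against 0.98% of tested transcripts. Without restricted replicate 4, 876 of the 3117 calls of that fit did, against 2277 of its 37128 tested transcripts. The groups of that fit are unequal, so the contrasts are not orthogonal there. With all 16 larvae and an unadjusted p under 0.05, the counts were 73 calls (36.7%) against 15.6% of tested transcripts. The called transcripts also had the smaller within-group spread given above, and its part in these shares was not tested. The median absolute field to laboratory log2 difference was 0.304 in the calls and 0.224 over all tested. PmetTSAr1.1-008776 was one of the 13, with a field to laboratory log2 difference of -0.58 (SE 0.084, adjusted p = 0.00288 by edgeR), and PmetTSAr1.1-009293 another, with -0.88 (SE 0.185, adjusted p = 0.0359 by edgeR). PmetTSAr1.1-013766 also passed, at 1.77 (SE 0.230, adjusted p = 0.00115 by edgeR), but only its foundress-reared larvae were high, averaging 8.52 CPM. Mean levels elsewhere were 1.09 (worker-reared), 0.959 (restricted) and 0.830 (ad libitum). An excess in 1 group enters both contrasts, so here the value is no difference shared by both field groups. How many of the 13 had this form was not tested. PmetTSAr1.1-007756 and PmetTSAr1.1-004133 did not pass, at -0.45 and -0.20.

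The number of calls rested heavily on single larvae. In each of the 16 fits all 199 kept their sign. They were chosen on these larvae for interactions large against their standard errors, with medians of 1.97 and 0.376. A reversal on omission of 1 larva was therefore unlikely, and the kept signs carry no test. Without restricted replicate 4 there were 3117 calls (8.4% of those tested), which included all 199. Of these 3117, 1464 had the larger caste value and 1653 the larger nutrition value. The absolute interaction of the 199 was larger in that fit in 158 cases, and its median went from 1.97 to 2.12. Omission of foundress-reared replicate 1 or 3 gave 295 and 309 calls, of which 168 and 162 were among the 199. Omission of any other larva gave fewer. It left 70 without restricted replicate 3, 27 without worker-reared replicate 1, 25 without ad libitum replicate 4 and 13 without foundress-reared replicate 4. It left 9, 8 and 5 without worker-reared replicates 3, 2 and 4, 6 and 4 without restricted replicates 1 and 2, and 7 and 5 without ad libitum replicates 3 and 1. Without foundress-reared replicate 2 there were 2 calls, and without ad libitum replicate 2 there were 0, with 6090 transcripts at an unadjusted p under 0.05 in that edgeR fit. In total 8 of the 199 were kept in at least 8 of the 16 omissions.

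**Figure D5:**
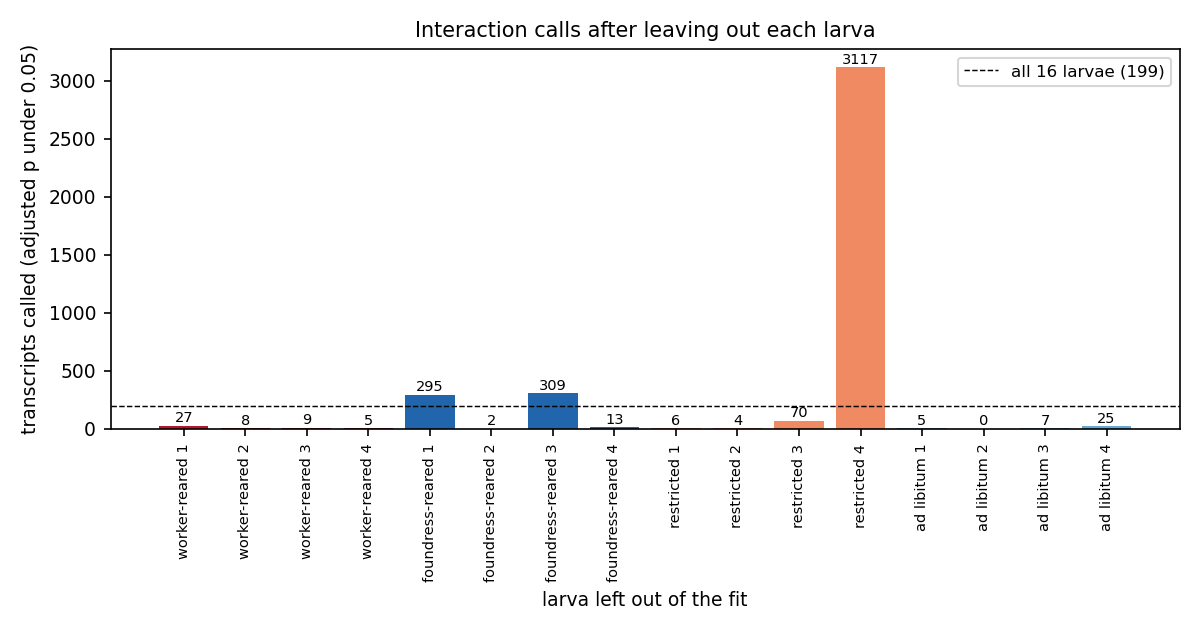
Bars give the number of transcripts called for the interaction (y axis) when the larva on the x axis was left out of the fit, coloured by group, and the dashed line marks the 199 calls with all 16 larvae. The count was 3117 without restricted replicate 4, and it was lower than 199 without 13 of the 16 larvae.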

How the data were processed

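RNA was extracted from single larval heads with RNeasy columns and made into TruSeq libraries, per the labels' protocols. The deposited table holds whole-number counts per assembled transcript in 16 columns, 1 per larva, matched to the labels by sample code. The submitters' processing notes name Bowtie2 and eXpress. Not given in the sources used here are their versions, the assembly, strand handling and the treatment of fragments shared between transcripts.

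Counts were analysed in edgeR 4.0.16 (R 4.3.3). Transcripts were kept with filterByExpr by group, which left 99.74% of counts, scaled by TMM and fitted with 1 coefficient per group (12 residual degrees of freedom, robust quasi-likelihood). All contrasts came from this fit, with Benjamini-Hochberg adjustment over all 36337 transcripts and a threshold of 0.05. A standard error is the size of the log2 fold change over the square root of F. The test was tried on simulated counts with known interactions. The outcome is not given here, and no result rests on it. Principal components were computed on the 500 transcripts of highest variance (log2 CPM, prior count 2).

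Alternatives were DESeq2 1.42.0, limma 3.58.1 voom with and without sample weights, other scalings and filters, and omission of each larva. The thinned fit, the TMM factor test and the shares by abundance were added after seeing the data. Named transcripts were, in each direction, the call with the smallest p and the most abundant call, then the 4 most abundant transcripts, the largest uncalled difference with a mean over 1 CPM in each direction, and every transcript of a count of 5 or fewer. The members, lists and rules were chosen with earlier results of these data known. Lists for hormones, nutrient signalling, storage proteins and cell types could not be applied without gene names. Replicate numbers follow the order of the records.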

Additional observations from a re-analysis of the deposited data

Results flagged for a closer look

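For the named transcripts and the library measures, 76 groups of 4 values were examined, and in 10 of them 1 value stood far outside the range of the rest. A rate of 1 in 20 would give 3.8 such groups if the values were independent and normally distributed. The transcripts share the same larvae and some were named for large differences, so the 10 cannot be judged against that number. Ad libitum replicate 3 supplied 4 of them. For PmetTSAr1.1-001020 it reached 587 CPM, where its group had at most 0.548 CPM, and for PmetTSAr1.1-010495 4.72 CPM, where its group had at most 0.462 CPM. For PmetTSAr1.1-000005 it reached 54490 CPM, where the rest had at most 13318 CPM, and for PmetTSAr1.1-009293 it was low, at 2.28 CPM below a range of 2.94 to 3.04 CPM. Restricted replicate 4 supplied 3. Its level of PmetTSAr1.1-000476 was 562 CPM, above a range of 292 to 332 CPM. It had 62026 transcripts detected, above a range of 57586 to 58253, and scored -55.9 on the first component, below a range of 24.8 to 40.8. Foundress-reared replicate 4 reached 1308 CPM of PmetTSAr1.1-001020, where its group had at most 0.293 CPM. In foundress-reared replicate 1 the level of PmetTSAr1.1-004133 was 47.6 CPM, below a range of 54.1 to 54.5 CPM, and in worker-reared replicate 2 that of PmetTSAr1.1-010495 was 10.4 CPM, where the rest had at most 0.935 CPM. The interaction test itself found that the caste and nutrition fold changes differed in 199 transcripts.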

How the results depend on the processing

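The count of 199 was 2172 with DESeq2, 21 with limma voom, 7225 with limma voom and sample weights, 44 with no filter and 422 with at least 1 CPM in 4 libraries. The calls of DESeq2 and of the weighted voom fit included all 199, and 21 of 21 from plain voom were among them. RLE factors gave 199 calls (190 shared), the fit without the robust option 198, upper-quartile scaling 254 and thinning to equal totals 163. Omission of 1 larva gave 0 to 3117. The 13 calls that also differed between field and laboratory became 196 with DESeq2, 2 with limma voom, 1867 with sample weights, 24 with upper-quartile scaling, 5 with no filter, 25 with at least 1 CPM in 4 libraries, and 0 to 876 on omission of 1 larva. Field to laboratory calls over all tested transcripts numbered 356 in the main fit, 1155 with DESeq2, 240 with limma voom and 3952 with sample weights. They numbered 359 with upper-quartile scaling, 281 with no filter and 286 with at least 1 CPM in 4 libraries. On omission of 1 larva they ranged from 193 to 2277. The cause of these changes was not tested. The first component's difference of differences, -16.6 with all larvae, ranged from -36.9 to 6.45 on omission of 1 larva, and the other 3 library measures kept their direction, with every adjusted p 0.0588 or above. Named transcripts kept their sign in each alternative that gave a value. In scarce transcripts only large differences were called, and depth and spread among larvae were not told apart there. No paired analysis was made because the labels state no pairing of larvae.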

Other observations

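Among the largest interactions, PmetTSAr1.1-014660 was singled out after its values were seen, since its laboratory groups lay far apart. It had 110, 97.8, 211 and 32.8 CPM in ad libitum larvae and 2.08, 0.702, 0.387 and 0.793 CPM in restricted larvae, a ratio of means of 114. In the field larvae it ranged from 0.230 to 11.7 CPM in worker-reared and from 0.392 to 132 CPM in foundress-reared larvae, which overlapped. Its nutrition log2 fold change was 6.84 (SE 1.52) and its interaction -9.89 (SE 1.96, adjusted p = 0.0439 by edgeR). The nutrition contrast by itself did not pass adjustment for this transcript, nor for any other tested. Restricted replicate 4 was on the restricted side for this transcript. At the other extreme, PmetTSAr1.1-016229 had the smallest absolute interaction of the calls, -0.69 (SE 0.132, edgeR adjusted p = 0.0415), and yet no larva overlapped between the sides. It measured 58.5 to 69.6 CPM in the 8 worker-reared and restricted larvae and 75.1 to 85.5 CPM in the 8 foundress-reared and ad libitum larvae. Each of these 2 calls was made in 3 of the 16 fits without 1 larva.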
